A study of Mus musculus with 10 samples.

Results

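The 10 genes described here, Myb, Sox4, Erg, Hlf, Lmo2, Ikzf2, Gata2, Runx1, Lyl1 and Lin28b, are regulators of blood stem and progenitor cells, followed by RNA sequencing in a mouse cell line whose block to differentiation can be lifted. They make up 10 of the 26227 genes with a listed transcript, were chosen by name, and all 10 passed the filter that left 13004 genes for testing. The cells, ER-Hoxa9-Lys-GFP, are a cultured line of C57BL/6 strain that carries an estrogen receptor fusion of Hoxa9, a homeobox factor that blocks differentiation while estrogen is bound. Every group, the control included, carries this fusion and was grown in serum-containing RPMI supplemented with conditioned medium (SCF, stem cell factor). The 10 libraries form 5 groups of 2. In the untreated group estradiol (E2) was kept throughout. In the 24 h, 40 h and 72 h groups E2 was absent for 24, 40 or 72 h after washing, with a return to E2 for the last 96, 80 or 48 h. In the 120 h group it stayed out for 120 h. The groups are ordered by time without E2 and are not successive sampling times, so fell, rose and step name differences between groups. The 120 h group thus differs from the 72 h group both in time without E2 and in having no E2 at the end, and the effects of these cannot be told apart. The labels do not say whether the 2 libraries of a group came from separate cultures, so a p-value speaks for the variation among these libraries alone, and that variation may be technical. The series title speaks of irreversible commitment to myeloid differentiation. The question for these genes is which of them stood at the untreated level after E2 was returned. No library was taken at the end of a 24, 40 or 72 h withdrawal, before that return. A gene at the untreated level may thus have gone back to it or never have left it, and these cannot be told apart. A gene at another level may have stood higher or lower before that return.

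As background, stem and progenitor cells of the blood are held in their state by a group of DNA-binding factors that sit together on shared enhancers. Gata2 (a zinc finger factor), Lyl1 (a basic helix-loop-helix factor), Lmo2 (a bridging protein that does not bind DNA itself), Runx1 and the Ets factor Erg belong to that group, with Tal1 and Fli1. Myb drives growth of progenitors, Sox4 is an HMG-box factor of early progenitors, Hlf is a bZIP factor found in stem cells and in leukemias, and Ikzf2 (Helios) is a zinc finger factor of the Ikaros family. Lin28b is not a transcription factor: it is an RNA-binding protein that blocks the maturation of let-7 microRNAs and is known for fetal blood progenitors. The label of transcription factors therefore holds for 8 of the 10 genes, with Lmo2 a cofactor and Lin28b an RNA-binding protein.

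Start-site sequences of genes chosen for contrasts in their levels or starts are shown first. Myb with Lin28b, Sox4 with Hlf, and the 2 starts of Runx1 make up the contrasts described here. They are RefSeq promoters (GRCm38.p6, 250 bases before to 50 after a start) read 5′ to 3′ on the strand of the gene. Capitals mark matches on either strand to 7 short motifs: CANNTG (E-box), GATAA (GATA factors), TGTGGT (Runx), CGGAAG (Ets), AACTG (Myb), TGACAG (Meis) and TGATTNAT (Hox with Pbx or Meis).
Myb (chr10:21160935-21161234, minus strand): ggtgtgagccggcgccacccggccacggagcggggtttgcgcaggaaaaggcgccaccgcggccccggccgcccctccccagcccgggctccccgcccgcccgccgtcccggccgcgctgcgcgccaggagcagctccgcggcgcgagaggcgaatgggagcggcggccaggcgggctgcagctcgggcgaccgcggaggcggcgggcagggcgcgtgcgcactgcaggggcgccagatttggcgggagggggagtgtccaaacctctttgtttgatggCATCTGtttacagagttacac
Lin28b (chr10:45470152-45470451, minus strand): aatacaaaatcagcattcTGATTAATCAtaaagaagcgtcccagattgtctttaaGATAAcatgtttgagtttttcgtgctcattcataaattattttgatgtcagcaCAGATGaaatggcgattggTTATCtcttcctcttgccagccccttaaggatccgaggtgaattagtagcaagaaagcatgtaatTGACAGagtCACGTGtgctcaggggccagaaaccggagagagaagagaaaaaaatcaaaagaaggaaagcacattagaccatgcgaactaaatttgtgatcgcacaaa
Sox4 (chr13:28953650-28953949, minus strand): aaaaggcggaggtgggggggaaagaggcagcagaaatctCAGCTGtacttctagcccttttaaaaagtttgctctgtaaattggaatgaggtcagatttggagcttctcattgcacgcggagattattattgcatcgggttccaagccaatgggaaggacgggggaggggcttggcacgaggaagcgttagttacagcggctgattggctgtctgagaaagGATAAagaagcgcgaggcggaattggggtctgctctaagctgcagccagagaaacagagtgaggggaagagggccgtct
Hlf (chr11:90390868-90391167, minus strand): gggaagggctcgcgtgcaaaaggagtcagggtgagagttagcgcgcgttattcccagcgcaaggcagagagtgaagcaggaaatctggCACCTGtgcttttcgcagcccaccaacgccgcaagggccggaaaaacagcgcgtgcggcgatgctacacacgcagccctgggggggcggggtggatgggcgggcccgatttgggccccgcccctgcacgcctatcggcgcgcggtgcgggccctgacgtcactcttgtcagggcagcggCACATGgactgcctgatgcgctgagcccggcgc
Runx1 distal start (chr16:92826025-92826324, minus strand): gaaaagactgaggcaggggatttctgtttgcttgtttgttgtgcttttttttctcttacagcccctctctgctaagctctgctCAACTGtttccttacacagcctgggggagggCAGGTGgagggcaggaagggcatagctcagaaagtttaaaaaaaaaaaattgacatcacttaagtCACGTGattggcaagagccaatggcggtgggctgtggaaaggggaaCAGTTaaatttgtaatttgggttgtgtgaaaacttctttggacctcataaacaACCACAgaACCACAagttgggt
Runx1 proximal start (chr16:92697280-92697579, minus strand): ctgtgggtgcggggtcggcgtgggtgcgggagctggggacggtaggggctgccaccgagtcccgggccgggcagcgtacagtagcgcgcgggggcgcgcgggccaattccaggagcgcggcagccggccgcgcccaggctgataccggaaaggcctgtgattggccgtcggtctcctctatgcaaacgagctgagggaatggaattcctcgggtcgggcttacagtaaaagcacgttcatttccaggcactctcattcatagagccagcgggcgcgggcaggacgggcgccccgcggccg
Of the 10 genes, 8 had a promoter entry, with 12 promoters in all; Lmo2 and Ikzf2 had none. CANNTG was found in 8 of the 12 promoters, beside 72.3% of all 32851 promoters in the table, and by gene in 8 of 8, beside 75.0% of all genes. Base composition differed widely between starts. The Myb promoter held 40 CpG pairs, the Runx1 promoter at the proximal start 35 and the Runx1 promoter at the distal start 2, against a median of 7. TGTGGT, held by 16.8% of all promoters, was found in the distal Runx1 promoter alone among the 12, with 2 matches on the opposite strand near its end. TGATTNAT, held by 3.22% of all promoters, was found in the Lin28b promoter alone, where 2 matches on opposite strands overlap in 1 block, TGATTAATCA. That promoter also held 2 matches to GATAA (25.4% of all promoters) and 1 to TGACAG (19.2%). The Sox4 promoter held 1 to GATAA, and 1 promoter of Erg held 1 to GATAA and 2 to TGACAG. The Lyl1 promoter held CGGAAG (16.9% of all promoters). AACTG, which can overlap an E-box and does so in the distal Runx1 promoter, was found in promoters of Erg and Runx1 (44.8%). A match is a description of letters in this window and not a binding site, and where a motif was not found only these letters are missing from this window.

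**Figure D1:**
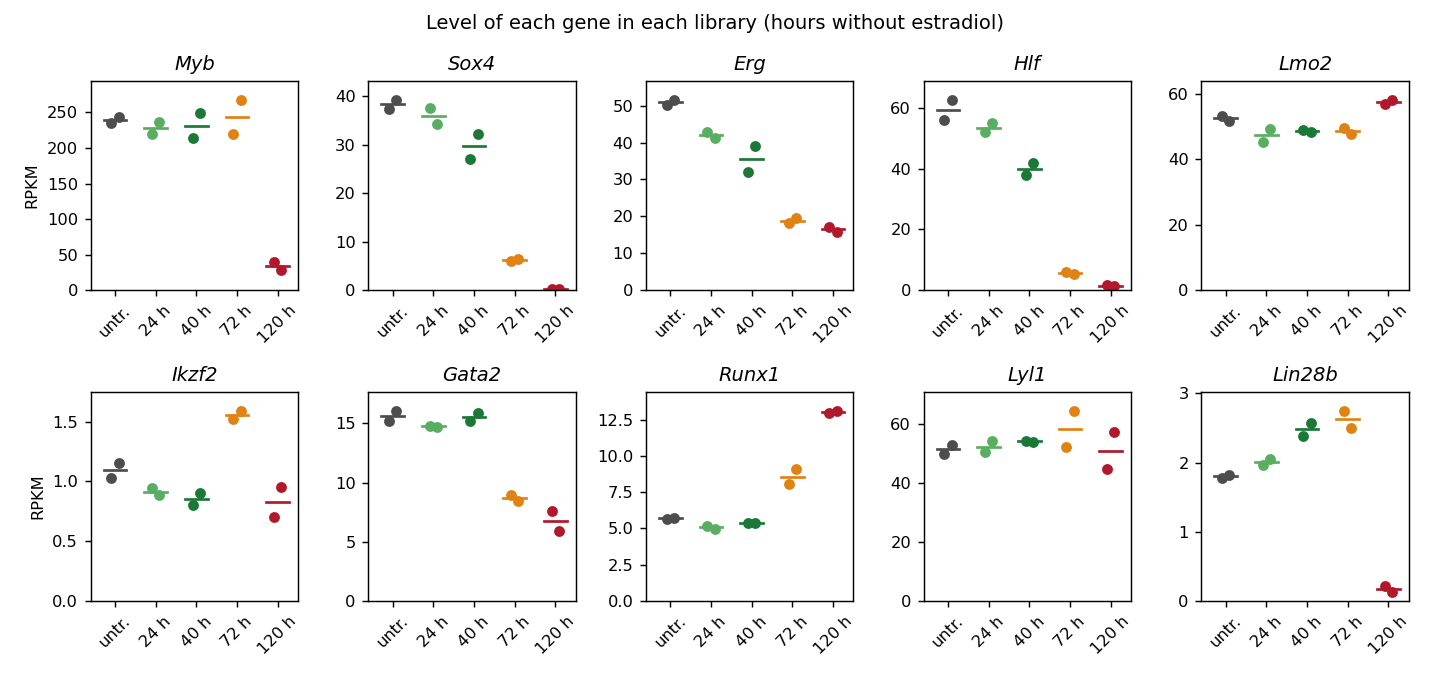
RPKM of the 10 genes in each library (y axis, linear, from 0) by group (x axis, hours without estradiol, untr. for untreated), with 1 point per library and a bar at the mean of 2. Myb and Lin28b are low in the 120 h libraries alone. Sox4, Hlf, Erg and Gata2 are low in the 72 h libraries as well, and Runx1 is higher in both groups.

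Differences were tested on log2(RPKM + 1) with limma over all 13004 genes, and a gene was called at a Benjamini-Hochberg adjusted p under 0.05. RPKM scales a read count to the size of the transcript and to library depth, so levels can be set side by side between genes. In the 120 h group 6 of the 10 genes were lower than untreated and 1 (Runx1) higher, where 80.3% of all genes tested were called (52.7% lower, 27.5% higher). In the 72 h group 4 were lower (Sox4, Erg, Hlf and Gata2) and 3 higher (Ikzf2, Runx1 and Lin28b), where 43.9% of all genes were called (22.3% lower, 21.6% higher). In the 40 h group 2 were lower (Erg and Hlf), where 4.28% of all genes were called (3.35% lower, 0.930% higher). In the 24 h group limma called 0 of the 10, where 0.00% of all genes were called, and limma voom on the recovered reads called 0 as well; at an unadjusted p under 0.05 the 24 h group had 1 of the 10 (Erg) and 365 of all genes. At 120 h and 72 h the share of the 10 that was called is to be read against these high backgrounds. The median difference of the 10 from untreated was -1.19 at 120 h, beside -0.36 over all genes, and -0.05 at 72 h, beside 0.02. All comparisons with untreated share the same 2 untreated libraries.

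In step-by-step comparisons, 40 h against 24 h gave 0 of the 10 with limma and 0 with voom (0.285% of all genes called). At an unadjusted p under 0.05 this comparison had 4 of the 10 and 1207 of the 13004 genes. The 72 h group differed from the 40 h group in 6 of the 10 (27.7% of all genes called, 13.8% lower and 13.9% higher), with Ikzf2 and Runx1 higher and Sox4, Erg, Hlf and Gata2 lower. The 120 h group differed from the 72 h group in 8 of the 10 (77.4% of all genes called, 51.0% lower and 26.4% higher), with Lmo2 and Runx1 higher and Myb, Sox4, Hlf, Ikzf2, Gata2 and Lin28b lower. The scale matters at 120 h: under median-of-ratios scaling the median of all genes against untreated moved from -0.36 to -0.0015, and the share of calls that were higher from 34.3% to 50.5%. From 72 h to 120 h that share moved from 34.1% to 53.5%. Relative to the median of all genes, the 6 genes called lower at 120 h still stood between -4.66 (Sox4) and -0.75 (Gata2), and Runx1 stood at 1.43.

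Sox4 had the deepest fall of these genes at 120 h. This single-exon gene on chromosome 13 (28948919 to 28953713, minus strand, GRCm38) had 37.5 and 39.2 RPKM in the untreated libraries, 37.5 and 34.2 at 24 h, 27.1 and 32.3 at 40 h, 5.98 and 6.46 at 72 h, and 0.279 and 0.148 at 120 h. From 40 h on, the libraries of each group lay wholly under those of the group before, and only the untreated and 24 h libraries overlapped. Sox4 fell by 2.45 on the log2 scale at 72 h (SE 0.11, limma adjusted p = 1.26e-06) and fell by 5.02 at 120 h (SE 0.11, limma adjusted p = 1.06e-08). From mean RPKM, untreated cells held 6.16 times the 72 h level and 179.6 times the 120 h level. The 72 h level, after 48 h with E2 again, was 16.2% of untreated, and the 120 h level was 0.557%. The 120 h values rest on 144 and 232 reads, against 33173 to 36688 in untreated libraries. At 40 h the difference of -0.36 did not pass the test (SE 0.11, limma adjusted p = 0.106), although the 40 h libraries did not overlap the 24 h ones.

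The exon of Sox4 shares 2616 bases, 54.6% of its length, with Gm26735, a noncoding gene on the opposite strand. Gm26735 had a mean of 49.2 ± 2.43 RPKM in untreated libraries (SD, n = 2), 7.48 ± 0.325 at 72 h and 0.281 ± 0.122 at 120 h. The use of strand in counting is not given in the sources used here, so reads of Sox4 and of Gm26735 cannot be told apart.

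Hlf had nearly the same pattern over the groups. The gene, on chromosome 11 (90336536 to 90390895, minus strand), had 56.1 and 62.6 RPKM untreated, 52.0 and 55.0 at 24 h, 38.0 and 41.9 at 40 h, 5.92 and 5.21 at 72 h, and 1.74 and 1.25 at 120 h. No 2 neighbouring groups overlapped. Hlf fell by 3.20 at 72 h (SE 0.12, limma adjusted p = 5.16e-07), the largest fall of the 10 genes in that group, and fell by 4.60 at 120 h (SE 0.12, limma adjusted p = 1.78e-08). The 72 h level was 9.37% of untreated and the 120 h level 2.52%. Of all genes tested, 0.292% lay below Hlf in the 72 h difference and 0.231% in the 120 h difference. Both coding transcripts of Hlf, which may share reads, gave a similar fall at 120 h.

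Hlf and Erg were also the genes that passed the test after the shortest time without E2. At 40 h Hlf fell by 0.56 on the log2 scale (SE 0.12, limma adjusted p = 0.0385) and Erg fell by 0.51 (SE 0.10, limma adjusted p = 0.0340), with every 40 h library below every untreated one for both. These 2 calls are not firm: Hlf lost its call in 13 of 20 alternatives (adjusted p up to 0.301) and Erg in 8 of 20 (adjusted p up to 0.236). Erg and Hlf each lost it when either untreated library, either 24 h library, either 72 h library or the first 40 h library was left out, with adjusted p from 0.0576 to 0.236 for Erg and from 0.0576 to 0.301 for Hlf. Hlf also lost it without the second 40 h library (adjusted p = 0.112). Without the 120 h group, Sox4 was called lower at 40 h (-0.36, limma adjusted p = 0.0350) and Lin28b higher (0.31, limma adjusted p = 0.0346). Both were called in 5 of 20 alternatives, among them those that left out either 120 h library.

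Erg, the Ets factor, was lower at 72 h, and its further step to 120 h did not pass the test. It lies on chromosome 16 (95359169 to 95586593, minus strand) and had 50.3 and 51.5 RPKM untreated, 42.9 and 41.3 at 24 h, 32.0 and 39.1 at 40 h, 18.1 and 19.6 at 72 h, and 17.2 and 15.8 at 120 h. The groups did not overlap, but the 72 h and 120 h levels were close together. Erg fell by 1.39 at 72 h (SE 0.10, limma adjusted p = 2.15e-05) and fell by 1.57 at 120 h (SE 0.10, limma adjusted p = 2.57e-06). Between 72 h and 120 h the difference was -0.18 (SE 0.10, limma adjusted p = 0.139), and it turned to 0.24 under median-of-ratios scaling. Erg stood at 37.0% of the untreated level at 72 h and at 32.5% at 120 h. All 5 coding transcripts of Erg, which may share reads, lay between -1.57 and -1.52 at 120 h.

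Gata2, the zinc finger factor, did not pass the test at 24 h or 40 h. Its falls at 72 h and 120 h were smaller than those of Sox4, Hlf and Erg. The gene is on chromosome 6 (88193891 to 88207032, plus strand), with 15.2 and 16.1 RPKM untreated, 14.8 and 14.7 at 24 h, 15.2 and 15.9 at 40 h, 8.94 and 8.46 at 72 h, and 7.64 and 5.90 at 120 h. The untreated and 40 h libraries overlapped, and all 72 h and 120 h libraries lay below the rest. Gata2 fell by 0.78 at 72 h (SE 0.11, limma adjusted p = 0.000642) and fell by 1.11 at 120 h (SE 0.11, limma adjusted p = 2.22e-05). The 72 h level was 55.6% of untreated and the 120 h level 43.2%. The 120 h level was 0.33 lower than the 72 h level (SE 0.11, limma adjusted p = 0.0202). This step turned to 0.06 under median-of-ratios scaling and stood at -0.01 relative to the median of all genes. That step lost its call or its sign in 6 of 19 alternatives. Under quantile normalization it stood at -0.13 (limma adjusted p = 0.308). It was not called with only the 2 groups compared (limma adjusted p = 0.141) or with array weights (limma adjusted p = 0.0672). Without the first 72 h library it stood at -0.29 and without the second 120 h library at -0.17, not called in either.

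Myb, which progenitors need in order to grow, was the most abundant of the 10 in the first 4 groups and had a different pattern. It lies on chromosome 10 (21124935 to 21160984, minus strand) and had 235 and 244 RPKM untreated, 220.0 and 236 at 24 h, 214 and 249 at 40 h, 219 and 267 at 72 h, and 39.5 and 28.8 at 120 h. The first 4 groups overlapped one another, and both 120 h libraries lay far below all others. The 72 h level was 102% of untreated, a difference of 0.01 (SE 0.16, limma adjusted p = 0.950), smaller than the spread between the libraries of a group. At 120 h Myb fell by 2.79 against untreated (SE 0.16, limma adjusted p = 1.36e-06) and fell by 2.81 against 72 h (SE 0.16, limma adjusted p = 2.27e-06). From 72 h to 120 h 0.323% of all genes tested had a lower difference than Myb. Mean RPKM in untreated libraries was 7.02 times that at 120 h. Myb shares 259 exon bases, 8.43% of its transcript, with the antisense gene Gm26577, which had 40.8 ± 1.06 RPKM untreated, 43.6 ± 6.26 at 72 h and 6.02 ± 1.04 at 120 h (SD, n = 2).

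Lin28b, the let-7 blocker, was likewise low in the 120 h group alone, at a far lower level than Myb. On the same chromosome as Myb (45376620 to 45486395, minus strand), it had 1.78 and 1.82 RPKM untreated, 1.96 and 2.06 at 24 h, 2.39 and 2.57 at 40 h, 2.75 and 2.51 at 72 h, and 0.208 and 0.123 at 120 h. The 24 h, 40 h and 72 h libraries all lay above both untreated ones, and both 120 h libraries lay below every other. Lin28b was 0.37 higher at 72 h (SE 0.08, limma adjusted p = 0.00853), a call lost without the first untreated library (adjusted p = 0.0569), and 0.31 higher at 40 h without passing the test (SE 0.08, limma adjusted p = 0.0851). It fell by 1.27 at 120 h against untreated (SE 0.08, limma adjusted p = 2.82e-06) and fell by 1.64 against 72 h (SE 0.08, limma adjusted p = 1.38e-06). The added pseudocount of 1 holds these values down for so low a gene: from mean RPKM the untreated level was 10.9 times and the 72 h level 15.9 times the 120 h level. The 120 h values rest on 135 and 195 reads.

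**Figure D2:**
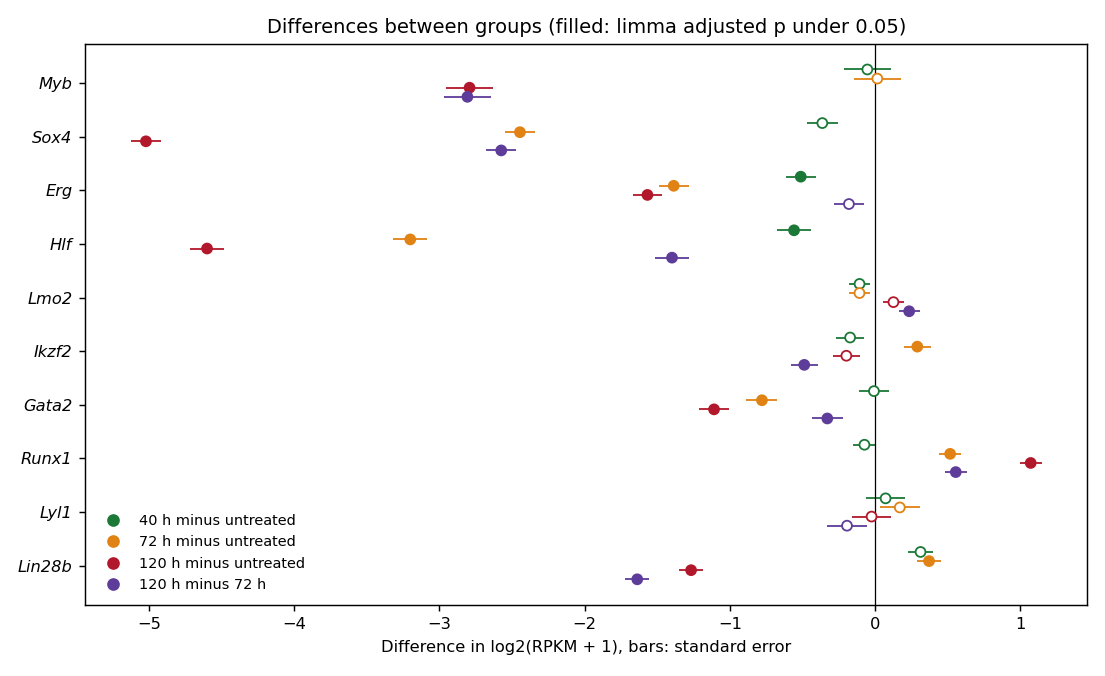
Difference in log2(RPKM + 1) between groups (x axis) for the 10 genes (y axis), with bars of 1 standard error; filled points have a limma adjusted p under 0.05. At 72 h Myb stands at 0.01 and Hlf at -3.20, while from 72 h to 120 h Myb stands at -2.81 and Erg at -0.18.

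Runx1, which binds DNA with Cbfb and is needed for blood stem cells to form, was the only gene of the 10 called higher than untreated at 120 h, where Lmo2 and Lyl1 were called as well under median-of-ratios scaling. It lies on chromosome 16 (92601466 to 92826149, minus strand) and had 5.66 and 5.70 RPKM untreated, 5.15 and 4.97 at 24 h, 5.35 and 5.34 at 40 h, 8.06 and 9.07 at 72 h, and 13.0 and 13.1 at 120 h. Every 72 h library lay above all untreated, 24 h and 40 h ones, and both 120 h libraries lay above the 72 h ones. Runx1 rose by 0.52 at 72 h (SE 0.08, limma adjusted p = 0.00105) and by 1.07 at 120 h (SE 0.08, limma adjusted p = 4.31e-06), or 1.51 and 2.29 times in mean RPKM. The step from 72 h to 120 h was 0.55 (SE 0.08, limma adjusted p = 0.000230).

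All 7 listed transcripts of Runx1 were higher at 72 h and 120 h than untreated, by unequal amounts that were not tested. The retained-intron transcript that begins at the proximal start stood at 3.99 times its untreated level at 120 h (0.916 and 3.65 mean RPKM). A noncoding transcript that begins at the distal start stood at 1.82 times (0.662 and 1.20 mean RPKM). These noncoding transcripts had the largest and the smallest fold of the 7. The coding transcript used here, from the distal start, stood at 2.29 times, and a coding transcript from the proximal start at 2.70 times. The 5 coding transcripts lay between 0.83 and 1.25 on the log2 scale at 120 h. The sequences of both starts are printed above. How reads that fit several transcripts were counted is not given in the sources used here. The 3 listed transcripts of Myb each held 213 to 240 mean RPKM untreated, so a read may have counted for more than 1 transcript. Values of single transcripts may thus not be independent.

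**Figure D3:**
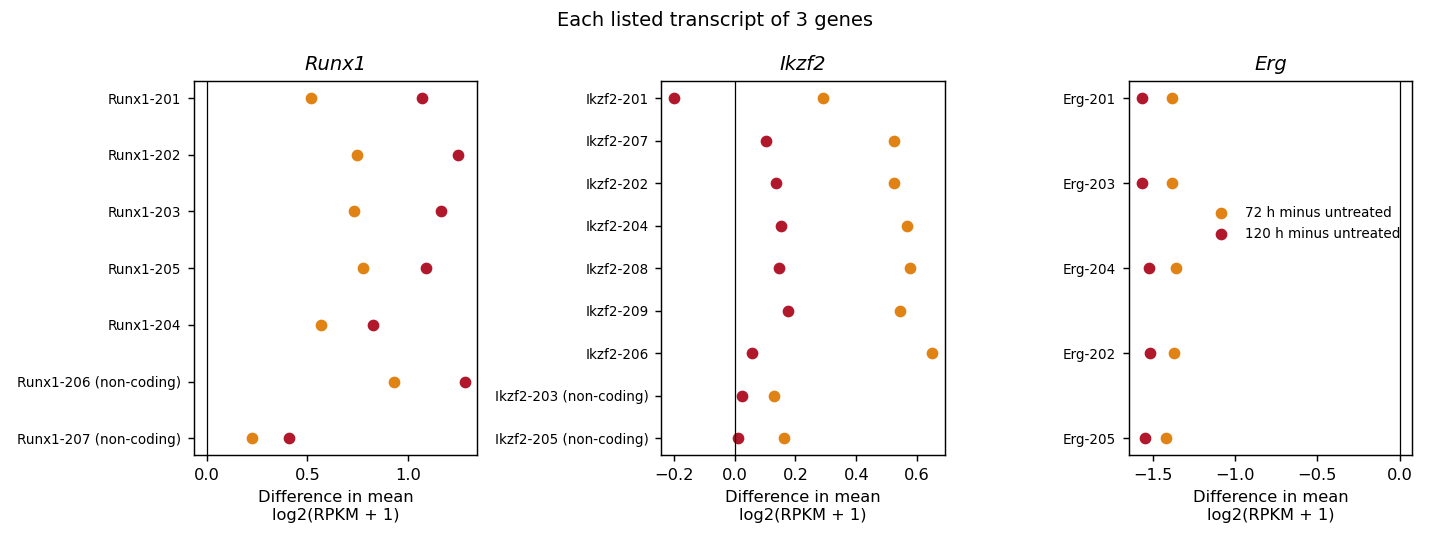
Difference from untreated in mean log2(RPKM + 1) (x axis) of every listed transcript of Runx1, Ikzf2 and Erg (y axis) at 72 h and 120 h, with no test. The Runx1 transcripts all lie above 0 and the 5 coding Erg transcripts between -1.57 and -1.36, while at 120 h Ikzf2 lies at -0.20 for the longest transcript and up to 0.18 for shorter ones.

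Lmo2 and Lyl1, the bridging protein and the helix-loop-helix factor of the Gata2 complex, did not pass the test against untreated in any group. Lmo2, on chromosome 2 (103957986 to 103981878, plus strand), had 53.4 and 51.8 RPKM untreated, 45.4 and 49.4 at 24 h, 49.1 and 48.4 at 40 h, 49.6 and 47.9 at 72 h, and 56.8 and 58.2 at 120 h. Its 120 h libraries were the highest, without overlap. The 120 h difference from untreated was 0.13 (SE 0.07, limma adjusted p = 0.138), and the step from 72 h to 120 h was 0.23 (SE 0.07, limma adjusted p = 0.0166). That step lost its call in 3 of 19 alternatives. These were only the 2 groups compared (limma adjusted p = 0.128), array weights (limma adjusted p = 0.137) and leaving out the second 72 h library (0.21). Under median-of-ratios scaling Lmo2 was called 0.56 higher at 120 h than untreated (limma adjusted p = 0.000161), and under quantile normalization 0.31 higher (limma adjusted p = 0.00466).

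Lyl1, on chromosome 8 (84701457 to 84704715, plus strand), had 49.9 and 52.9 RPKM untreated, 50.6 and 54.0 at 24 h, 54.1 and 54.0 at 40 h, 52.1 and 64.5 at 72 h, and 44.5 and 57.3 at 120 h. All neighbouring groups overlapped. The 72 h difference of 0.17 (SE 0.14, limma adjusted p = 0.342) and the 120 h difference of -0.02 (SE 0.14, limma adjusted p = 0.872) did not pass the test. Under median-of-ratios scaling the 120 h difference was 0.41 and called (limma adjusted p = 0.0224). The step of -0.19 from 72 h to 120 h (limma adjusted p = 0.220) was called, at -0.37, without the second 120 h library (adjusted p = 0.0180).

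Ikzf2 was near the filter of 1 RPKM and had its highest level at 72 h. The gene, on chromosome 1 (69531214 to 69687245, minus strand), had 1.03 and 1.15 RPKM untreated, 0.945 and 0.884 at 24 h, 0.805 and 0.906 at 40 h, 1.52 and 1.59 at 72 h, and 0.702 and 0.950 at 120 h. Both 72 h libraries lay above all others. Ikzf2 was 0.29 higher at 72 h than untreated (SE 0.09, limma adjusted p = 0.0374), 0.46 higher than at 40 h (SE 0.09, limma adjusted p = 0.00813) and 0.49 higher than at 120 h (SE 0.09, limma adjusted p = 0.00153). The first of these is borderline, with the call lost in 11 of 20 alternatives. It was lost when any 1 of the untreated, 24 h, 40 h or 72 h libraries was left out, with adjusted p from 0.0555 to 0.185. The higher level at 72 h than at 40 h was lost without the first 40 h library (adjusted p = 0.0616) and without the second 72 h library (adjusted p = 0.0503).

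The sign at 120 h depended on the transcript of Ikzf2. The 9278-base transcript used here stood at -0.20 at 120 h (SE 0.09, limma adjusted p = 0.0821), and the other 6 coding transcripts lay between 0.06 and 0.18. All 7 coding transcripts, which may share reads, were higher at 72 h, by 0.29 to 0.65. With the scalings the 120 h value turned to 0.018 (median-of-ratios) and 0.0047 (quantile), and without the second 120 h library it was called at -0.30 (adjusted p = 0.0185). Eosinophil markers were also highest at 72 h, where the 5 genes summed to 1327 to 1499 RPKM and 3 reached 1 RPKM. They summed to 35.5 to 61.4 RPKM untreated and 301 to 522 at 120 h. Erythroid markers were highest at 72 h too, at 147 to 151 RPKM, where 1 gene reached 1 RPKM. Their sums were 36.0 to 39.8 RPKM untreated and 21.3 to 31.7 at 120 h. The part of either list in the Ikzf2 and Gata2 values was not tested.

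The partners of these factors were described from a list of 13 genes, 12 of them tested. At 72 h 7 of the 12 were lower and 2 higher (median -0.49, all genes 0.02), and at 120 h 9 were lower and 2 higher (median -1.03, all genes -0.36). Of all genes tested, 22.3% were lower and 21.6% higher at 72 h, and 52.7% lower and 27.5% higher at 120 h, and the counts of this and the other lists are to be read against these shares. Zfpm1, the Gata cofactor FOG1, went from 13.2 ± 0.609 RPKM untreated to 2.57 ± 0.300 at 72 h (SD, n = 2) and fell by 1.99 (SE 0.10, limma adjusted p = 2.29e-06). Tcf4, an E protein that pairs with Tal1 and Lyl1, fell by 1.05 at 72 h (SE 0.09, limma adjusted p = 5.40e-05). Tal1, the helix-loop-helix partner of Lmo2, fell by 2.00 at 120 h (SE 0.13, limma adjusted p = 2.09e-06), from 11.1 ± 0.544 to 2.06 ± 0.604 RPKM. Spi1 (PU.1), a myeloid Ets factor, rose by 0.79 at 72 h (SE 0.08, limma adjusted p = 0.000144) and by 2.16 at 120 h (SE 0.08, limma adjusted p = 1.47e-07). Cbfb, the partner of Runx1, stood at -0.01 at 120 h (SE 0.10, limma adjusted p = 0.914) and at 0.42 under median-of-ratios scaling. Under that scaling the counts at 120 h were 7 lower and 3 higher, and Ssbp4 also changed sign, to 0.15.

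**Figure D4:**
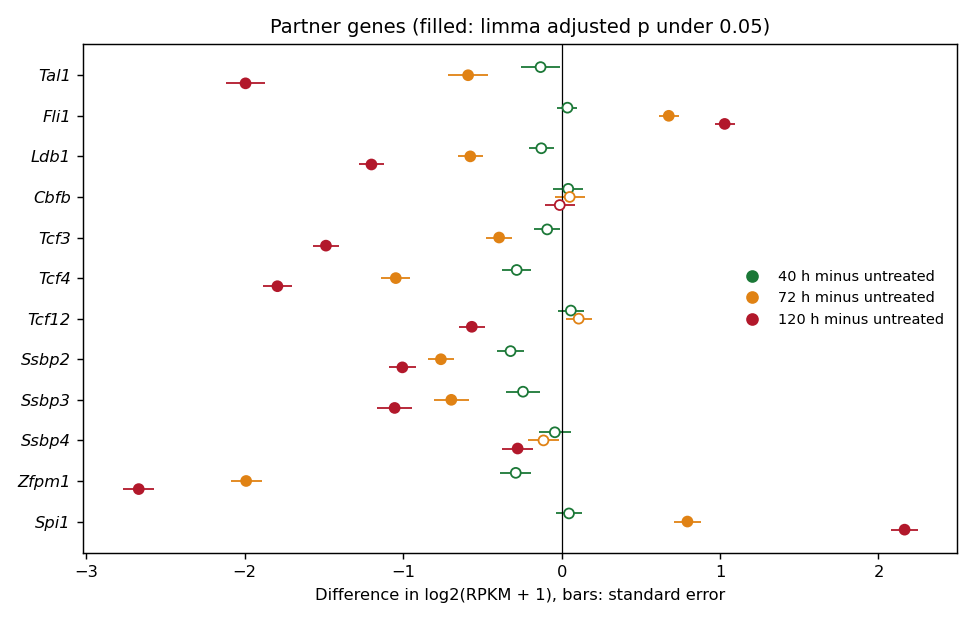
Difference from untreated in log2(RPKM + 1) (x axis) of the 12 partner genes tested (y axis) at 40 h, 72 h and 120 h, with bars of 1 standard error and filled points at a limma adjusted p under 0.05. Zfpm1 is the lowest, at -2.67 at 120 h, and Spi1 the highest, at 2.16.

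Within the families of the 10 genes, paralogs did not all move with the member. Of 23 paralogs, 15 were tested, with 7 lower and 2 higher at 72 h (median -0.10) and 8 lower and 7 higher at 120 h (median -0.53). The share lower at 120 h is near the 52.7% over all genes, whose median was -0.36. Under median-of-ratios scaling the 120 h counts were 6 lower and 7 higher. Fli1, the closest relative of Erg, rose by 0.68 at 72 h (SE 0.06, limma adjusted p = 7.73e-05) while Erg fell by 1.39. Runx2 fell by 1.85 at 120 h (SE 0.13, limma adjusted p = 3.51e-06) while Runx1 rose by 1.07. Sox12, of the same SoxC group as Sox4, fell by 0.97 at 72 h (SE 0.10, limma adjusted p = 0.000117) and fell by 3.05 at 120 h (SE 0.10, limma adjusted p = 5.57e-08). Mybl2, a cell cycle relative of Myb, was 0.35 higher at 72 h without passing the test (SE 0.20, limma adjusted p = 0.187). It fell by 2.09 from 72 h to 120 h (SE 0.20, limma adjusted p = 2.85e-05). Its SE rests on the spread over all 5 groups, and its 120 h libraries varied most, at 7.16 ± 2.93 RPKM (SD, n = 2). Lmo4 rose by 1.84 from 72 h to 120 h (SE 0.07, limma adjusted p = 4.76e-07).

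Among 35 other regulators of stem and progenitor cells, 21 were tested. At 72 h 11 were lower and 3 higher (median -0.67), and at 120 h 14 were lower and 6 higher (median -0.54), beside 22.3% lower and 21.6% higher of all genes at 72 h and 52.7% and 27.5% at 120 h. Under median-of-ratios scaling 10 were lower and 7 higher at 120 h, and Foxo3, named for its change of sign, moved from -0.33 to 0.08. Meis1, the Hoxa9 cofactor, went from 10.9 ± 0.398 RPKM to 1.24 ± 0.0665 at 72 h (SD, n = 2) and fell by 2.41 (SE 0.13, limma adjusted p = 3.37e-06). Trib2, a pseudokinase that promotes C/EBP-alpha breakdown, fell by 2.31 at 72 h (SE 0.11, limma adjusted p = 1.66e-06). Mycn and Gfi1b were the genes of this list called at 40 h. Mycn fell by 1.30 (SE 0.11, limma adjusted p = 0.00181) and Gfi1b fell by 0.91 (SE 0.11, limma adjusted p = 0.00513). Both are near the filter of 1 RPKM, with means from 2.32 to 0.345 for Mycn and from 2.03 to 0.616 for Gfi1b. Whether these calls hold in the alternatives was not examined, and the 40 h calls of Hlf and Erg were not firm. At 120 h the immediate-early genes Nr4a1 and Egr1 rose by 3.86 (SE 0.21, limma adjusted p = 1.05e-06) and 3.31 (SE 0.33, limma adjusted p = 2.85e-05). Nfe2 stood at -0.10 at 120 h (SE 0.09, limma adjusted p = 0.308), a sign that turned under both other scalings. Hoxa9 reads, which cannot be split here into the gene and the fusion, gave 55.1 ± 6.89 RPKM untreated and 96.2 ± 2.40 at 120 h, a rise of 0.80 (SE 0.16, limma adjusted p = 0.00158).

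For Myb, a list of 13 targets and partners was described, all 13 tested. At 72 h 4 were lower and 3 higher (median 0.15), and at 120 h 9 were lower and 4 higher (median -1.79), counts that were the same at 120 h under median-of-ratios scaling. Of all genes, 43.9% were called at 72 h and 80.3% at 120 h, the latter made up of 52.7% lower and 27.5% higher. Kit, the stem cell factor receptor, had 155 ± 4.47 RPKM untreated, 103 ± 4.46 at 72 h and 21.1 ± 7.95 at 120 h (SD, n = 2). Its 72 h difference of -0.58 did not pass the test (SE 0.21, limma adjusted p = 0.0560). That SE rests on the spread over all 5 groups, which for Kit was widest for its level at 120 h. The missed call thus does not speak for the untreated and 72 h libraries alone. At 120 h Kit fell by 2.87 (SE 0.21, limma adjusted p = 5.13e-06). Myc, named after its values were seen, had 188 ± 1.68 RPKM untreated, 210 ± 6.96 at 72 h and 32.5 ± 14.0 at 120 h. Flt3, a cytokine receptor of early progenitors, fell by 3.12 at 72 h (SE 0.14, limma adjusted p = 1.48e-06), where the difference of Myb was 0.01. Elane, the neutrophil elastase of primary granules, rose by 6.38 at 72 h (SE 0.42, limma adjusted p = 1.14e-05).

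For Lin28b, 14 of 18 listed genes of the let-7 axis were tested, with 3 lower and 3 higher at 72 h (median -0.10) and 8 lower and 5 higher at 120 h (median -0.54; 6 lower and 5 higher under median-of-ratios scaling). The share called at 72 h is near the 43.9% of all genes, and the share lower at 120 h near the 52.7%. Hmga2, a chromatin protein and classic let-7 target, went from 43.7 ± 1.59 RPKM untreated to 6.82 ± 0.289 at 72 h and 8.42 ± 3.90 at 120 h (SD, n = 2). It fell by 2.51 at 72 h (SE 0.23, limma adjusted p = 7.08e-05), where Lin28b was higher than untreated. Arid3a, another target, rose by 1.32 at 72 h (SE 0.14, limma adjusted p = 0.000167) and by 2.50 at 120 h (SE 0.14, limma adjusted p = 1.13e-06). Lin28a, also named after its values were seen, had 3.78 ± 0.0997 RPKM untreated, 3.87 ± 0.0870 at 72 h and 5.98 ± 0.354 at 120 h. These lists were named with earlier results of these data known, and the counts are a description.

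The genes most like each of the 10 were found as the smallest root mean square difference in log2(RPKM + 1), each gene taken minus its untreated mean, over the 10 libraries and 10746 coding genes. The nearest to Myb were Ppan (0.11), Akap1 (0.14) and Pus7 (0.16). The nearest to Lin28b were Thg1l (0.06), Tomm70a (0.08) and Eif1a (0.08). The nearest to Sox4 were Tnnt2 (0.13), Adgrg1 (0.15) and Gimap6 (0.24), and those to Hlf were Ebf1 (0.13), Ptprcap (0.23) and Gimap1 (0.23). Adgrg1 is one of the progenitor markers and Ebf1 one of the lymphoid markers named here. The nearest to Erg was Vangl2 (0.06), to Gata2 Rps27rt (0.09), to Runx1 Cerk (0.07), to Lmo2 Pgghg (0.05), to Ikzf2 Rreb1 (0.08) and to Lyl1 Chka (0.04). The measure describes these libraries, which the genes share, and carries no test. With the pseudocount of 1, genes at low levels can be near in it and differ in fold. Vangl2 had a mean of 2.18 RPKM untreated and 0.0585 at 120 h, where Erg had 50.9 and 16.5. Ebf1 had 23.9 and 0.0085 RPKM, where Hlf at 120 h stood at 2.52% of its untreated level.

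The groups also differed in markers of cell state. The 7 progenitor markers summed to 1578 to 1617 RPKM per untreated library, 475 to 486 at 72 h and 98.0 to 126 at 120 h, and all 7 were above 1 RPKM untreated. The 8 neutrophil markers summed to 36.1 to 40.4, 418 to 659 and 23207 to 23887 RPKM in the same groups. The 11 lymphoid markers summed to 242 to 270 RPKM untreated and 8.36 to 9.88 at 72 h, and the mast cell and basophil list, which includes Kit, to 326 to 335 and 146 to 149. The 7 monocyte and macrophage markers summed to 116 to 118 RPKM untreated, 659 to 729 at 72 h and 1218 to 1287 at 120 h. The part of these shifts in the levels of the 10 genes was not tested, and in such bulk samples fewer cells of a type and less RNA per cell cannot be told apart. Read totals fitted from the RPKM steps, which need not be the numbers sequenced, were 173611000 to 204290000 per library. On that scale the 10 genes held 135 to 150973 reads each per library.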

How the data were processed

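Total RNA of 10 samples was sequenced from Illumina TruSeq libraries, per the labels' protocols. The authors deposited 1 table per library of RPKM per transcript. STAR and GRCm38 are named in the submitters' processing notes; how reads were counted, on which annotation and with which strand setting, is not stated in the labels. Transcript IDs were matched without version to GENCODE M21 (77720 of 79535, 97.7%), and 1815 without a match made up 2.64% to 3.24% of each library's RPKM total. A single transcript stood for each gene, preferring coding, principal, CCDS and longer ones in that order. A read total was fitted so that RPKM steps came out as whole reads, which gave 173611000 to 204290000 per library. At these totals 100% of the low values tested were whole, but the fit had used such values too. A multiple of a total would give whole reads as well, so read counts hold on the fitted scale. On it a single read of a transcript of 2 kb equals 0.00245 to 0.00288 RPKM. Read counts on this scale entered limma voom as an alternative.

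Genes with at least 1 RPKM in at least 2 libraries (13004) were tested as log2(RPKM + 1) with limma 3.58.1 (trend, R 4.3.3) over all 10 libraries, with 5 residual and 3.04 prior degrees of freedom, in 7 comparisons with Benjamini-Hochberg adjustment in each, 2-sided. Each gene had 1 estimate of spread over all 5 groups, so spread in 1 group enters the test between 2 others. Fold changes on this scale understate changes of low genes. Of the listed genes, up to 3 called genes with the largest change and the most abundant uncalled gene per list and comparison were eligible to be named, and Hoxa9, Kit and Meis1 as checks of the label. The members and lists were chosen with earlier results of these data known. Promoters were read from RefSeq and descriptions made with Python 3.11.15. Results under 20 alternatives are compared in the closing section.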

Additional observations from a re-analysis of the deposited data

Results flagged for a closer look

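For 5 of the 10 genes the difference from untreated had opposite signs in neighbouring groups, and the difference between the groups itself passed limma's test. Only for Lin28b were the differences from untreated called on both sides of 0. Those of Ikzf2 at 40 h and 120 h, Runx1 at 40 h, Myb at 72 h and Lmo2 at 72 h and 120 h did not pass the test. Ikzf2 stood at -0.17 at 40 h and 0.29 at 72 h, a difference of 0.46 (limma adjusted p = 0.00813), and at 0.29 at 72 h and -0.20 at 120 h, a difference of -0.49 (limma adjusted p = 0.00153). Runx1 stood at -0.07 at 40 h and 0.52 at 72 h, a difference of 0.59 (limma adjusted p = 0.000843). Myb stood at 0.01 at 72 h and -2.79 at 120 h, a difference of -2.81 (limma adjusted p = 2.27e-06). Lin28b stood at 0.37 at 72 h and -1.27 at 120 h, a difference of -1.64 (limma adjusted p = 1.38e-06). Lmo2 stood at -0.11 at 72 h and 0.13 at 120 h, a difference of 0.23 (limma adjusted p = 0.0166). Each pair of groups shares the untreated libraries. Groups of 2 libraries are too small to look for single libraries that stand apart.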

How the results depend on the processing

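Under 20 alternatives, of 1380 values of the 10 genes, 1292 kept their direction and their side of the threshold, 43 lost a call, 16 gained one and 29 changed sign, 1 of the last from a called value (Gata2 from 72 h to 120 h). The calls of Myb, Sox4, Erg, Hlf, Gata2, Runx1 and Lin28b at 120 h against untreated held in 19 of 19 alternatives. With median-of-ratios scaling signs changed for Ikzf2 (0.018) and Lyl1 (0.41) at 120 h against untreated, and for Erg (0.24), Gata2 (0.062) and Lyl1 (0.24) from 72 h to 120 h. With quantile normalization they changed for Ikzf2 (0.0047) and Lyl1 (0.15) at 120 h, Gata2 at 40 h (0.0013), Myb from 24 h to 40 h (-0.00019) and Lmo2 from 40 h to 72 h (0.022). With the most abundant transcript Ikzf2 changed to 0.056 at 120 h and 0.031 at 24 h. The causes were not tested.

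Leaving out 1 library gave ranges across 0 for Lyl1 at 120 h (-0.20 to 0.15), Myb at 72 h (-0.13 to 0.16), Gata2 at 40 h (-0.045 to 0.027), Myb at 40 h (-0.16 to 0.053) and Lyl1 at 24 h (-0.023 to 0.071), all against untreated. It did so from 24 h to 40 h for Myb (-0.089 to 0.12) and Lmo2 (-0.019 to 0.10), and from 40 h to 72 h for Myb (-0.074 to 0.21), Lmo2 (-0.026 to 0.025) and Lyl1 (-0.054 to 0.25).

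Genes called at 40 h against untreated (557) became 1988 with only the 2 groups, 1797 without the 120 h group, 2859 with array weights and 41 to 1789 with 1 library left out. At 24 h, 0 became 2 with a pseudocount of 0.1, 3 with no filter, 4 with only the 2 groups, 3 without the 120 h group, 34 with array weights and 0 to 3 with 1 library left out. From 24 h to 40 h, 37 became 160, 238 and 493 with only the 2 groups, without the 120 h group and with array weights, and 0 to 237 with 1 library left out. From 40 h to 72 h, 3604 became 6082 without the 120 h group and 1977 to 6082 with 1 library left out, and at 72 h against untreated 5708 became 3583 to 7877. Of the 10 genes, the 2 called at 40 h against untreated became 0 with no filter, 1 with a pseudocount of 0.1, quantile normalization, the most abundant transcript or voom, 4 with only the 2 groups, without the 120 h group or with array weights, and 0 to 4 with 1 library left out. From 24 h to 40 h array weights called 1 (Hlf).

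The labels number replicates 1 and 2 in every group. Over genes, deviations of like-numbered libraries correlated positively in 10 of 10 pairs of groups (0.034 to 0.639), over 0.1 in 8 and not in 2. The labels do not say what the number stands for, so a shared replicate effect is possible and the block was kept as an alternative. With the replicate number as a block, genes called were 10787 at 120 h, 6441 at 72 h, 693 at 40 h and 0 at 24 h against untreated, 43 from 24 h to 40 h, 4437 from 40 h to 72 h and 10424 from 72 h to 120 h, and the counts of the 10 genes called did not change (7, 7, 2, 0, 0, 6 and 8). Where a left-out library leaves a group with 1 sample, that sample is assumed to vary like the other groups. Sox4 and Lin28b at 120 h rest on 135 to 232 reads.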
